A study of Homo sapiens with 6 samples.

Results

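Divergent promoter transcripts are long noncoding RNAs (lncRNAs) that start beside a protein-coding gene and are read away from it, and a symbol ending in -DT names each after that gene. The members described here are the lncRNA rows of the deposited count table with such a symbol and at least 100 counts summed over all 6 libraries. They number 175 of 597 lncRNA rows ending in -DT and of 63241 rows in the table. The summed count chose them, and it ran from 101 to 3162 with a median of 271. Each was set beside its partner, the gene named before -DT, and all 175 members and all 175 partners, every one of them protein coding, had enough counts to be tested.

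The RNA came from PANC-1 cells, a human line of pancreatic carcinoma in long use, listed as genotype WT. One group had received 20 µM Schisandrin B, a lignan of Schisandra fruit, for 24 h, and the other had received vehicle, under 0.1% DMSO, for the same time. Each group held 3 libraries, so the comparison throughout is Schisandrin B against vehicle in a single line. Separate cultures are not stated for the replicates, so each p-value reflects only how these libraries vary, which may be technical variation.

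Many mammalian promoters bind RNA polymerase II in both orientations. The polymerase that leaves upstream usually makes a short, unstable RNA: U1 snRNP protects few sites on it, early polyadenylation signals and the Integrator complex end its transcription, and the nuclear exosome degrades it. A minority of these RNAs are spliced and stable enough to be annotated as genes, and the -DT rows are of that kind. Because both RNAs of a pair come from a shared nucleosome-free region, their levels may move together, while differences in termination or decay can separate them.

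The partner promoters below show how close the starts of a pair lie, and they were chosen because the pairs recur in the results. TMEM161B and ERRFI1 belong to pairs in which both RNAs rose, and COPS8 to one in which both fell. SRP14, NUP50 and TOMM22 fell while their divergent transcripts rose, and HK2 rose beside a divergent transcript with no detected change. Each line holds the RefSeq window on GRCh38.p14 from 250 bases before to 50 after the first listed start of the partner, on the partner's strand. Capitals mark the bases between the RefSeq start of the divergent transcript, which lies to their left and is read leftward on the other strand, and the start of the partner, which is the first lower-case base to their right.
TMEM161B: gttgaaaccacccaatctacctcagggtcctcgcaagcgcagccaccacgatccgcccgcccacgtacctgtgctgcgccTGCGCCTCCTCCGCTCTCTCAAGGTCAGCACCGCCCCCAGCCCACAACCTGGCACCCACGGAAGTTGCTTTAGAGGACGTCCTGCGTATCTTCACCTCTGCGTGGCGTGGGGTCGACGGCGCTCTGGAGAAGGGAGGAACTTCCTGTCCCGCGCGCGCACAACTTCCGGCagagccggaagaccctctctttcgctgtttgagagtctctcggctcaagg
ERRFI1: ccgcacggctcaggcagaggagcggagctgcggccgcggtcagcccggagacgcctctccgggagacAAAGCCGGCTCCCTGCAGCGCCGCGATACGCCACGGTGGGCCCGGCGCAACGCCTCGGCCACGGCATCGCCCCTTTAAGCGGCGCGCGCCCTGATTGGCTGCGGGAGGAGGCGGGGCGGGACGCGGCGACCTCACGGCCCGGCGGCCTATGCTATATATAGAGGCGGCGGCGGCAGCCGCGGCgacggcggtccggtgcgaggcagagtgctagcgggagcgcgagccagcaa
COPS8: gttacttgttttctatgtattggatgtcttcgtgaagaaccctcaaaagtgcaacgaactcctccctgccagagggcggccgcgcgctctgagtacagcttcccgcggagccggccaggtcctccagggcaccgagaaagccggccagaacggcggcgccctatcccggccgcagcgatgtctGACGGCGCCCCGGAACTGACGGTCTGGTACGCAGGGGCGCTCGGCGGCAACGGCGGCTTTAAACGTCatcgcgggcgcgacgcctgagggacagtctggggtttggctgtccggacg
SRP14: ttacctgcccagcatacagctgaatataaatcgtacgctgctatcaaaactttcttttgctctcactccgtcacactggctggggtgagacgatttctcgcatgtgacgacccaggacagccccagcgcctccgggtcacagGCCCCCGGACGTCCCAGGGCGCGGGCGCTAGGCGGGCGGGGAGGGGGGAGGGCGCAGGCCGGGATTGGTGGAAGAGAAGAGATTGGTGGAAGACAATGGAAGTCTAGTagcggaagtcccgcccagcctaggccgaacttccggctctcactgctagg
NUP50: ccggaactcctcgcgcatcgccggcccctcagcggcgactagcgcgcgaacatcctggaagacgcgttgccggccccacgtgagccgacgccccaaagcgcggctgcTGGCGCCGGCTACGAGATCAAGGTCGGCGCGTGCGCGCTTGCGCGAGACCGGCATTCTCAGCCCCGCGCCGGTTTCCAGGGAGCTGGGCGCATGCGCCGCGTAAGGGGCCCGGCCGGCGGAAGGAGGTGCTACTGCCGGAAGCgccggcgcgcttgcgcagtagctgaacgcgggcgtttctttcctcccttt
TOMM22: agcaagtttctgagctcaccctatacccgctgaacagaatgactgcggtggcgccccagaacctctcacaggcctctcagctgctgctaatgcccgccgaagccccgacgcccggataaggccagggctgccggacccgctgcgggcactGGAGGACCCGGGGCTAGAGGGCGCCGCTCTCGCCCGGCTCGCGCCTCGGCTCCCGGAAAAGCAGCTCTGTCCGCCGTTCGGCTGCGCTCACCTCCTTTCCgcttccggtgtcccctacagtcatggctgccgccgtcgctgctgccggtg
HK2: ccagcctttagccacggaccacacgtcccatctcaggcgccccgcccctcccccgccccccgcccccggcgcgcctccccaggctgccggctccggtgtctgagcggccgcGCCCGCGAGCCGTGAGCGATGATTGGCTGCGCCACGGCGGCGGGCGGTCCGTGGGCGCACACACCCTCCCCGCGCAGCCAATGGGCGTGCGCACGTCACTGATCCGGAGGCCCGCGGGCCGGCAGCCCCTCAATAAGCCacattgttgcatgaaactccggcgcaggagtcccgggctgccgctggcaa

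The positions of these windows are chr5:88268796-88269095 on the minus strand for TMEM161B, chr1:8026260-8026559 on the minus strand for ERRFI1, and chr2:237085639-237085938 on the plus strand for COPS8. SRP14 lies at chr15:40039153-40039452 on the minus strand. NUP50 at chr22:45163675-45163974, TOMM22 at chr22:38681707-38682006 and HK2 at chr2:74833877-74834176 are on the plus strand. The capital stretch was shortest at COPS8, with 67 bases, and longest at ERRFI1, with 183. Its share of G and C was 65.3% at TMEM161B, the lowest of the 7 windows, and 74.9% at ERRFI1, the highest. In the capitals, searched on both strands, CCAAT occurred 2 times at SRP14, 2 times at HK2 and 1 time at ERRFI1, and CCGGAAG, a core of ETS-factor sites, 1 time at TMEM161B and 1 time at NUP50.

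RefSeq held a promoter window for 155 partners and 146 divergent transcripts, and for both in 138 pairs. In 126 of those the first listed starts diverged, with a median distance of 170 bases, and in 91 they lay within 250 bases of each other. The partner windows had a median G and C content of 69.0%, against 58.3% over the 27305 promoters of the table. GGGCGG, the core of an Sp1 site, was present in 71.0% of partner windows and 44.6% of all windows. CCGGAAG was present in 31.0% and 10.7%, TGACG, a half-site of CREB and ATF factors, in 40% and 25%, and CCAAT in 36.1% and 35.7%. The TATA box TATAAA was present in 5.16% of partner windows and 12% of all windows. All windows include noncoding genes and were not limited by expression, while every partner is protein coding and was tested. Promoters of other expressed coding genes were not compared, so these contrasts cannot be called particular to divergent pairs. Motifs were matched on either strand, motifs can share end bases with one another, and a match is only a run of letters.

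The libraries held 16045095, 14290665 and 13667700 counts in Schisandrin B and 13656826, 14577016 and 18289410 in vehicle. The epithelial keratins KRT8, KRT18 and KRT19, the mesenchymal filament VIM and the ductal factor SOX9 were present in every library, while KRT7, EPCAM, CDH1 and CDH2 were under 0.6 CPM (counts rescaled so that libraries of unequal depth compare). The 18 markers of other cells summed to 3.22 to 3.66 CPM in Schisandrin B libraries and 15.2 to 16.1 CPM in vehicle libraries. CDH5, an endothelial cadherin, was at 1.06 to 1.76 CPM in Schisandrin B, and at 12.1 to 13.1 CPM in vehicle, where it made up most of the sum. Acinar and islet markers were at 0 in all 6 libraries, 11 of the 18 markers were at 0 throughout Schisandrin B and 8 throughout vehicle, and any part of this difference in the results below was not tested.

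Of the 175 divergent transcripts, 80 rose in Schisandrin B, 22 fell and 73 passed in neither direction (edgeR quasi-likelihood test, Benjamini-Hochberg adjusted p under 0.05 over all 15773 genes tested). That is 45.7% higher and 12.6% lower, where all genes tested gave 35% higher and 35.2% lower, and where all 2453 lncRNA genes tested gave 51.5% higher and 8.07% lower. The share that rose was thus smaller, and the share that fell larger, than among lncRNA genes as a whole. The median log2 fold change was 0.38 for divergent transcripts, 0.61 for all lncRNA genes tested and -0.08 for protein-coding genes. By separation of the groups, 86 members had all 3 Schisandrin B values above all 3 vehicle values and 29 had them below, against 36.4% and 37.1% of all genes tested and 53.6% and 10% of lncRNA genes tested.

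Partner genes divided evenly, with 69 higher, 63 lower and 43 in neither direction, and a median log2 fold change of 0.02. Among all protein-coding genes tested, 32.1% were higher and 41.4% lower. In 113 of the 175 pairs the log2 fold change of the divergent transcript was above that of its partner.

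The rule sums counts over both groups, so a member scarce in vehicle could pass it only through Schisandrin B. Of 17 members with under 50 counts in the vehicle libraries together, 16 were called higher, and of 9 with under 50 counts in the Schisandrin B libraries, 7 were called lower. The first set includes MPC1-DT, ERICH2-DT, CCDC15-DT and MRPS30-DT, with 27, 21, 39 and 41 vehicle counts. The second includes BRINP3-DT, COPS8-DT and CENATAC-DT, with 24, 41 and 48 Schisandrin B counts. Calls of such members, described below, are tied to the rule that chose them. Without the first of these sets, 64 of 158 members were higher and 22 lower. Just inside the limit, TOLLIP-DT had 101 counts, with 17, 11 and 10 in Schisandrin B and 20, 20 and 23 in vehicle, and OTULIN-DT had 101, with 28, 16 and 25 in Schisandrin B and 11, 14 and 7 in vehicle. Just outside it, THOC1-DT had 99 counts and TMEM11-DT 97.

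Summed over members, divergent transcripts took 0.117%, 0.120% and 0.116% of the counts of the Schisandrin B libraries, against 0.0890%, 0.0866% and 0.0852% of the vehicle libraries. The groups did not overlap, and the mean was 0.118 ± 0.0018% in Schisandrin B and 0.0869 ± 0.0019% in vehicle (SD, n = 3 each), 1.35-fold higher. With 3 libraries a group, the smallest p of an exact permutation test, two-sided, is 0.1, and that was the value here. The summed share of the partners was 1.20-fold higher and that of all lncRNA genes 1.90-fold higher. The median member had 9.23, 10.8 and 9.84 counts per 100 partner counts in Schisandrin B and 8.65, 8.06 and 7.41 in vehicle.

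**Figure D1:**
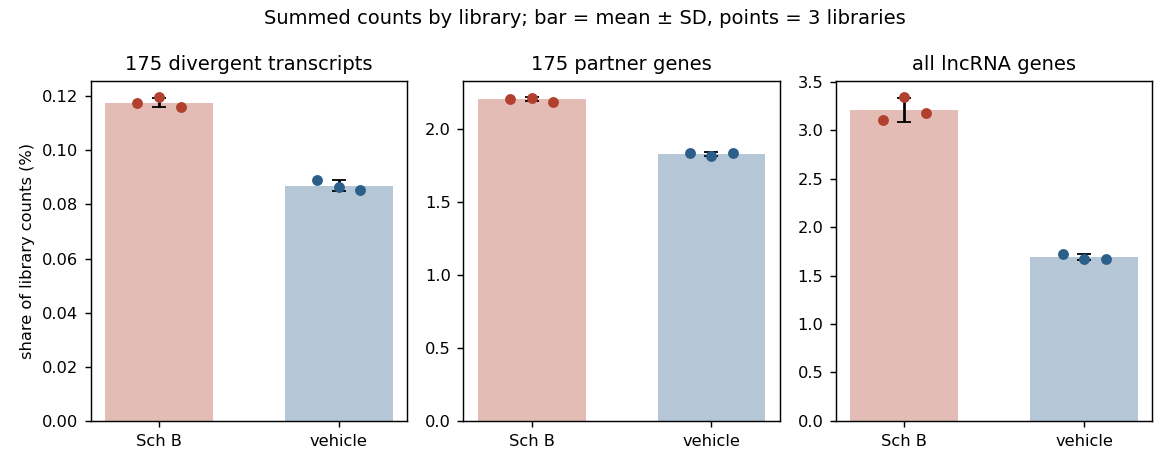
Share of library counts (percent, linear axis from 0) taken by the 175 divergent transcripts, by their 175 partner genes and by all lncRNA genes. Bars are means with SD and points are the 3 libraries of each group. The 3 Schisandrin B points lie above the 3 vehicle points in each panel, with means of 0.118% and 0.0869% for divergent transcripts, 2.21% and 1.83% for partners and 3.21% and 1.69% for all lncRNA genes.

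Levels between genes can be set side by side only per length, and the authors' FPKM values serve for that. The length behind FPKM was not fixed per gene across libraries. MAN1B1 had 108.7, 105.8 and 108.5 CPM in vehicle but 19.0, 29.5 and 31.1 FPKM. The percentages below therefore carry a length term that can vary by library. The median member stood at 15.9% of its partner's FPKM in Schisandrin B and at 13.6% in vehicle. The range across pairs ran from 0.352% to 1835% in Schisandrin B and from 0.198% to 1020% in vehicle. ERRFI1-DT was lowest in both groups, at 1.48 FPKM beside 421 FPKM of ERRFI1 in Schisandrin B and 0.494 beside 249 FPKM in vehicle. RAB30-DT, chosen after its values were seen, was highest in both, at 9.58 FPKM beside 0.522 FPKM of RAB30 in Schisandrin B and 6.91 beside 0.678 FPKM in vehicle. The divergent transcript was above its partner in 13 pairs in Schisandrin B and in 14 in vehicle, and in 11 of them in both, so the coding gene was not always the more abundant of the pair.

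The most abundant members differed in what they did. SLC12A2-DT (ENSG00000245937, chromosome 5, 127939152 to 128083172), beside the sodium-potassium-chloride cotransporter gene, had 41.3, 37.8 and 40.3 CPM in Schisandrin B and 28.7, 33.3 and 28.8 in vehicle. Its groups did not overlap, its log2 fold change was 0.40 (SE 0.08, edgeR adjusted p = 0.000256), and SLC12A2 rose by a similar 0.51 (SE 0.07). TMEM161B-DT (ENSG00000247828, chromosome 5, 88268864 to 88439337), whose promoter is printed above, rose more. It had 52.2, 50.2 and 46.0 CPM in Schisandrin B and 19.0, 16.6 and 17.9 in vehicle, a log2 fold change of 1.47 (SE 0.08, edgeR adjusted p = 5.26e-11). TMEM161B had 59.0, 59.3 and 61.0 CPM in Schisandrin B and 36.4, 32.9 and 34.7 in vehicle, so both RNAs rose and the divergent one rose further. The ratio of the pair was 1.61-fold higher, at 88.4, 84.5 and 75.4 divergent counts per 100 partner counts in Schisandrin B and 52.3, 50.4 and 51.5 in vehicle (limma adjusted p = 2.85e-05).

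GARS1 encodes glycyl-tRNA synthetase, a target of the amino acid stress factor ATF4. GARS1-DT (ENSG00000196295, chromosome 7, 30516309 to 30595286) had 41.2, 41.6 and 40.4 CPM in Schisandrin B and 15.4, 14.3 and 16.3 in vehicle. GARS1 had 1348, 1274 and 1317 CPM in Schisandrin B and 490.2, 489 and 508 in vehicle. Both rose by nearly the same amount, with log2 fold changes of 1.42 (SE 0.08) and 1.40 (SE 0.04), and the log2 change of their ratio was 0.01 (SE 0.09, limma adjusted p = 0.901). GARS1-DT overlaps GARS1 in the table, and since no source used here gives the strand setting of the counting, reads of overlapping genes could not be told apart. Among the members named below, those of EOLA2, TMED2, FAM111A, PPP1CB, DPP3, DPH5, RIPK2, MRNIP, EIF2AK3, MCPH1, COX10, CTBP1 and ZNF584 overlap their partner too, as does TMEM161B-DT. Those of ZDHHC12, TOMM22, ATF6 and B4GAT1 overlap another gene with at least 100 counts.

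Other abundant members moved less than TMEM161B-DT and GARS1-DT. NIPBL-DT, beside the cohesin loader gene, was at 26.6, 27.2 and 27.7 CPM in Schisandrin B and 26.2, 30.3 and 26.4 in vehicle, with a log2 fold change of -0.03 (SE 0.08). CTBP1-DT, beside a transcriptional corepressor gene, fell by 0.32 (SE 0.08) and CTBP1 by 0.21 (SE 0.05) on the log2 scale. TRMT61A-DT rose by 0.61 (SE 0.11) beside TRMT61A, the catalytic subunit of a tRNA methyltransferase, at 0.48 (SE 0.06). ZNF584-DT rose by 0.39 (SE 0.09) beside a zinc-finger gene with a log2 fold change of 0.01 (SE 0.13).

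Taking the calls of both RNAs, 46 pairs had both higher and 12 had both lower. In 20 pairs the divergent transcript was higher and the partner lower, and in 4 it was lower and the partner higher. A further 14 and 6 pairs had only the divergent transcript called, higher and lower, 19 and 31 had only the partner called, higher and lower, and 23 had neither. Pairs called alike thus made up 33.1%, against 22% of 703 other head-to-head pairs of an lncRNA and a coding gene and 32.4% of 1228 pairs of coding genes. Pairs called in opposite directions made up 13.7%, against 15.2% and 19.5%. The other pairs did not have to meet the count limit of the members, and -DT rows under that limit may be among them. The share called alike varied with depth, at 40.5% for members with at least 300 counts beside the 33.1% of all members. These contrasts therefore cannot be called particular to divergent pairs.

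**Figure D2:**
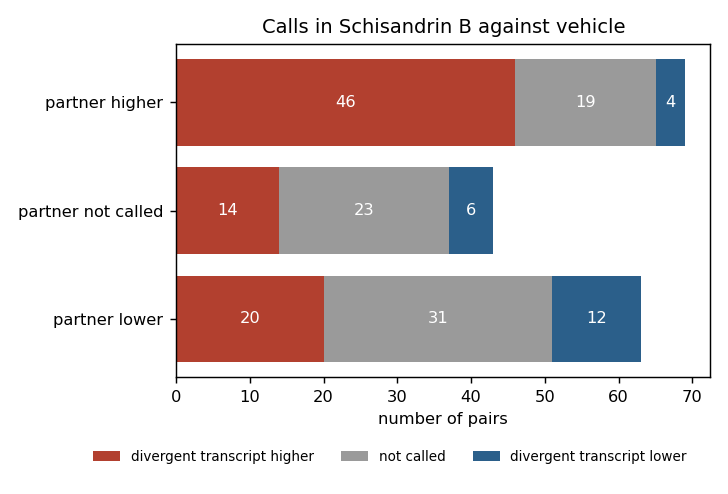
Number of pairs by the edgeR call of the partner gene (rows) and of its divergent transcript (colours) in Schisandrin B against vehicle. Of 69 pairs with a higher partner, 46 had a higher divergent transcript and 4 a lower one. Of 63 pairs with a lower partner, 20 had a higher divergent transcript, 12 a lower one and 31 were not called.

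Where the partner rose, the divergent transcript rose in 46 of 69 pairs, or 66.7%, beside 45.7% of all members. Where the partner fell, it fell in 12 of 63, or 19.0%, beside 12.6% of all members, and rose in 20, or 31.7%. The count limit that chose the members enters these shares. With at least 50 counts in each group, 37 of 60 divergent transcripts beside a higher partner rose, against 43.0% of that set. Beside a lower partner, 8 of 53 fell, against 10.1% of that set. Across the 175 pairs, which share libraries and are not independent replicates, the log2 fold changes of the 2 RNAs had a Pearson r of 0.29 and a Spearman rho of 0.24. The other lncRNA and coding pairs gave 0.26 and 0.20, and coding pairs 0.17 and 0.16. Over the 149 pairs whose divergent transcript had at least 50 counts in each group, the values were 0.16 and 0.18. That floor was not applied to the other lncRNA and coding pairs, so the 0.16 and 0.18 cannot be ranked against their values.

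**Figure D3:**
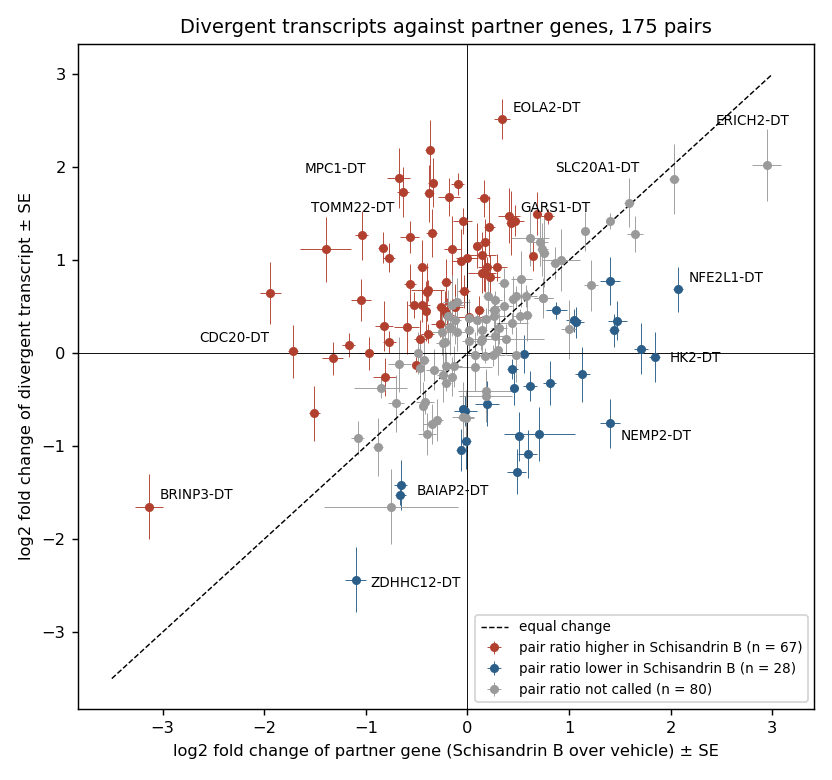
Log2 fold change of the divergent transcript (vertical) against that of its partner gene (horizontal), Schisandrin B over vehicle, for 175 pairs, with SE bars. Colours give the limma call of the pair ratio, 67 higher, 28 lower and 80 not called, and the dashed line marks equal change. GARS1-DT and SLC20A1-DT lie near the line, EOLA2-DT and MPC1-DT far above it, and HK2-DT and NEMP2-DT far below it.

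Among the 46 pairs with both RNAs higher, the log2 fold change ranged from 0.32 to 2.52 for divergent transcripts and from 0.12 to 2.94 for partners. The ratio was called higher in 14, lower in 4 and in neither direction in 28. ERRFI1 encodes a feedback inhibitor of the epidermal growth factor receptor. ERRFI1-DT had 3.24, 3.90 and 3.31 CPM in Schisandrin B and 1.18, 1.33 and 1.16 in vehicle, a log2 fold change of 1.50 (SE 0.24), and ERRFI1 had 1408, 1399.5 and 1449 CPM in Schisandrin B and 902, 864 and 883.5 in vehicle, a log2 fold change of 0.68 (SE 0.04). KDM7A-DT, beside a histone demethylase gene, had 6.90, 7.72 and 5.32 CPM in Schisandrin B and 2.59, 3.01 and 2.61 in vehicle (log2 fold change 1.28, SE 0.19). KDM7A itself rose by 1.65 (SE 0.08) on the log2 scale, and the groups of neither RNA overlapped.

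SLC20A1 encodes a sodium-dependent phosphate transporter. SLC20A1-DT had 2.87, 5.22 and 3.02 CPM in Schisandrin B and 1.63, 0.979 and 0.499 in vehicle, a log2 fold change of 1.87 (SE 0.38), and SLC20A1 a log2 fold change of 2.03 (SE 0.05). Replicate 2 of Schisandrin B was the highest of the 3 for the divergent transcript, and the spread was wide in both groups. TMED2-DT, beside a cargo receptor gene of the early secretory pathway, had 8.37, 9.81 and 8.63 CPM in Schisandrin B and 3.70, 4.26 and 4.93 in vehicle, with log2 fold changes of 1.05 (SE 0.16) and, for TMED2, 0.64 (SE 0.04). OSMR-DT, chosen after its values were seen, rose by 1.62 (SE 0.27) beside the oncostatin M receptor gene OSMR at 1.59 (SE 0.05). GOT1-DT, chosen in the same way, rose by 0.97 (SE 0.17) beside the cytosolic aspartate aminotransferase gene GOT1 at 0.86 (SE 0.05).

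The largest rise among members was that of EOLA2-DT (ENSG00000235703, chromosome X, 149938613 to 150224580), with 8.80, 9.67 and 11.4 CPM in Schisandrin B and 2.44, 1.61 and 1.22 in vehicle, 5.73-fold higher (edgeR adjusted p = 2.02e-08). EOLA2 had 32.2, 33.7 and 35.8 CPM in Schisandrin B and 27.5, 26.8 and 26.1 in vehicle, a log2 fold change of 0.34 (SE 0.08). EOLA1 and EOLA2 are near-identical neighbours, so the split of reads between EOLA1-DT and EOLA2-DT is uncertain. ERICH2-DT had 1.47, 2.85 and 1.37 CPM in Schisandrin B and 0.592, 0.349 and 0.444 in vehicle (log2 fold change 2.02, SE 0.39). It overlaps ERICH2 and other genes in the table, so its rise beside ERICH2 at 2.94 (SE 0.14) cannot be assigned to one of them.

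Both RNAs fell in 12 pairs, with log2 fold changes from -2.44 to -0.32 for divergent transcripts and from -3.13 to -0.21 for partners. The ratio was called lower in 3 of them, those of BAIAP2, COPS8 and ZDHHC12, and higher in 1. Of these, the COPS8-DT ratio lost its call on leaving out any 1 library other than vehicle replicate 3, at log2 changes of -0.82 to -0.63. The ZDHHC12-DT ratio lost its call without Schisandrin B replicate 2, at -1.05, and without Schisandrin B replicate 3, at -1.27. ZDHHC12-DT (ENSG00000223478, chromosome 9, 128724435 to 128733199), beside a palmitoyltransferase gene, had 0.794, 0.278 and 0.431 CPM in Schisandrin B and 2.30, 2.52 and 3.55 in vehicle, 5.42-fold lower (edgeR adjusted p = 8.42e-06). ZDHHC12 had 11.4, 12.9 and 14.2 CPM in Schisandrin B and 28.1, 28.4 and 26.1 in vehicle, a log2 fold change of -1.10 (SE 0.10). BAIAP2 encodes a membrane-bending adaptor of actin. BAIAP2-DT (ENSG00000226137, chromosome 17, 81029130 to 81034881), which overlaps no other gene, had 9.71, 8.07 and 8.84 CPM in Schisandrin B and 27.6, 26.3 and 22.7 in vehicle, 2.87-fold lower (edgeR adjusted p = 1.81e-09). BAIAP2 fell by 0.66 (SE 0.05) on the log2 scale, and the pair stood at 21.6, 18.7 and 20.3 divergent counts per 100 partner counts in Schisandrin B and 39.3, 37.3 and 33.6 in vehicle.

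COPS8 encodes a subunit of the COP9 signalosome. COPS8-DT had 0.916, 1.04 and 0.791 CPM in Schisandrin B and 2.81, 2.45 and 2.16 in vehicle (log2 fold change -1.42, SE 0.27), and COPS8 fell by 0.66 (SE 0.06) on the log2 scale. FAM111A-DT, beside a protease gene of DNA replication, had 3.48, 3.20 and 2.44 CPM in Schisandrin B and 5.77, 5.94 and 5.54 in vehicle, and its log2 fold change of -0.91 (SE 0.19) was close to the -1.08 (SE 0.06) of FAM111A. In the BRINP3 pair the partner fell the further. BRINP3-DT had 0.367, 0.835 and 0.431 CPM in Schisandrin B and 1.70, 1.96 and 1.50 in vehicle, and BRINP3 had 3.36, 4.66 and 2.88 CPM in Schisandrin B and 29.3, 34.8 and 31.6 in vehicle. Their log2 fold changes were -1.65 (SE 0.35) and -3.13 (SE 0.14), and the ratio was 1.47 higher on the log2 scale (SE 0.36, limma adjusted p = 0.00216).

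Opposite calls were found in 24 pairs, and in each of them the ratio was called in the direction of the divergent transcript. The ratio is made of the values of the same 2 RNAs, so its direction there follows from their calls. SRP14 encodes a protein of the signal recognition particle. SRP14-DT (ENSG00000248508, chromosome 15, 40039242 to 40080614) had 6.72, 6.61 and 6.61 CPM in Schisandrin B and 2.96, 3.08 and 3.05 in vehicle, a log2 fold change of 1.13 (SE 0.17, edgeR adjusted p = 1.19e-05). SRP14 had 86.9, 83.5 and 88.7 CPM in Schisandrin B and 149.9, 155 and 157 in vehicle, a log2 fold change of -0.84 (SE 0.05, edgeR adjusted p = 4.54e-11). The ratio was 3.90-fold higher, at 7.73, 7.92 and 7.46 divergent counts per 100 partner counts in Schisandrin B and 1.98, 1.98 and 1.94 in vehicle (limma adjusted p = 6.43e-08). The starts of the 2 genes lie 109 bases apart in RefSeq, as the printed promoter shows.

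NUP50 encodes a nucleoporin of the nuclear basket. NUP50-DT (ENSG00000226328, chromosome 22, 45133020 to 45163811) had 10.6, 10.0 and 9.56 CPM in Schisandrin B and 5.92, 3.98 and 4.93 in vehicle, and NUP50 had 46.6, 43.5 and 43.3 CPM in Schisandrin B and 79.6, 71.8 and 76.5 in vehicle. The log2 fold changes were 1.03 (SE 0.16) and -0.77 (SE 0.06), and the ratio was 3.51-fold higher (limma adjusted p = 5.11e-08). TOMM22, a receptor of the protein import complex of the outer mitochondrial membrane, had 28.3, 30.4 and 29.3 CPM in Schisandrin B and 61.6, 57.9 and 61.5 in vehicle. TOMM22-DT had 3.48, 2.64 and 2.95 CPM in Schisandrin B and 0.888, 1.40 and 1.44 in vehicle, so that the groups did not overlap for either RNA and the ratio was 4.97-fold higher (limma adjusted p = 2.84e-06).

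Further pairs of this kind with partners of mitochondrial function were those of MPC1, a subunit of the pyruvate carrier, and ACAD9, an assembly factor of respiratory complex I. MPC1-DT had 2.32, 2.64 and 1.65 CPM in Schisandrin B and 0.740, 0.629 and 0.444 in vehicle, 3.69-fold higher, and MPC1 was 1.60-fold lower. With 27 vehicle counts, MPC1-DT met the count limit only through Schisandrin B. ACAD9-DT had 5.93, 8.49 and 8.41 CPM in Schisandrin B and 1.26, 3.22 and 2.33 in vehicle (log2 fold change 1.73, SE 0.27), and ACAD9 fell by 0.63 (SE 0.06) on the log2 scale. Both divergent transcripts overlap no other gene, and in both pairs all Schisandrin B values lay above all vehicle values for the divergent RNA and below them for the partner.

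PPP1CB-DT, beside a catalytic subunit of protein phosphatase 1, rose by 1.83 (SE 0.26) where PPP1CB fell by 0.34 (SE 0.05) on the log2 scale. GMDS-DT, beside an enzyme of GDP-fucose synthesis, rose by 1.25 (SE 0.18) where GMDS fell by 0.57 (SE 0.10). CCDC15-DT, with only 39 vehicle counts, rose by 1.11 (SE 0.35) where CCDC15 fell by 1.39 (SE 0.25). DPP3-DT, beside a dipeptidyl peptidase gene, rose by 0.52 (SE 0.14) where DPP3 fell by 0.53 (SE 0.06). SUV39H2-DT, beside a histone methyltransferase gene of heterochromatin, had 4.09, 3.97 and 2.59 CPM in Schisandrin B and 2.30, 2.31 and 2.55 in vehicle. The groups of SUV39H2-DT were separated only narrowly, and its call of 0.57 (SE 0.23, edgeR adjusted p = 0.0334) was lost without any of 5 of the 6 libraries, at 0.46 to 0.62. SUV39H2 itself fell by 1.05 (SE 0.10) on the log2 scale. MVP-DT, beside the major vault protein gene, rose by 2.19 (SE 0.32) where MVP fell by 0.37 (SE 0.05), but it overlaps 7 genes, 4 of them with at least 100 counts, so its reads cannot be assigned with certainty.

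The reverse arrangement, a lower divergent transcript beside a higher partner, was called in 4 pairs. KCTD13 encodes an adaptor of the CUL3 ubiquitin ligase. KCTD13-DT (ENSG00000247735, chromosome 16, 29926836 to 29928933) had 1.16, 1.53 and 1.29 CPM in Schisandrin B and 3.63, 3.01 and 3.05 in vehicle, and KCTD13 had 38.1, 44.6 and 36.7 CPM in Schisandrin B and 27.0, 26.4 and 31.7 in vehicle. The ratio was 3.33-fold lower (limma adjusted p = 2.45e-05), and neither RNA's groups overlapped. CEP83-DT, beside a gene of centriolar appendages, fell by 1.09 (SE 0.26) where CEP83 rose by 0.59 (SE 0.09), on the log2 scale. MBTPS1 encodes the protease that first cuts ATF6 and SREBP precursors in the Golgi. MBTPS1-DT fell by 0.90 (SE 0.26) where MBTPS1 rose by 0.51 (SE 0.04), and this pair was chosen after its values were seen.

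NEMP2-DT, beside a nuclear envelope protein gene, completes the group. It had 1.34, 1.18 and 1.58 CPM in Schisandrin B and 2.37, 1.82 and 2.72 in vehicle (log2 fold change -0.75, SE 0.27), and NEMP2 had 27.5, 30.8 and 27.2 CPM in Schisandrin B and 9.92, 11.3 and 11.1 in vehicle. The call of NEMP2-DT was lost without Schisandrin B replicate 2, at -0.66, and without vehicle replicate 3, at -0.62. The ratio of the pair, 4.40-fold lower (limma adjusted p = 9.99e-06), was the largest fall of all 175.

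**Figure D4:**
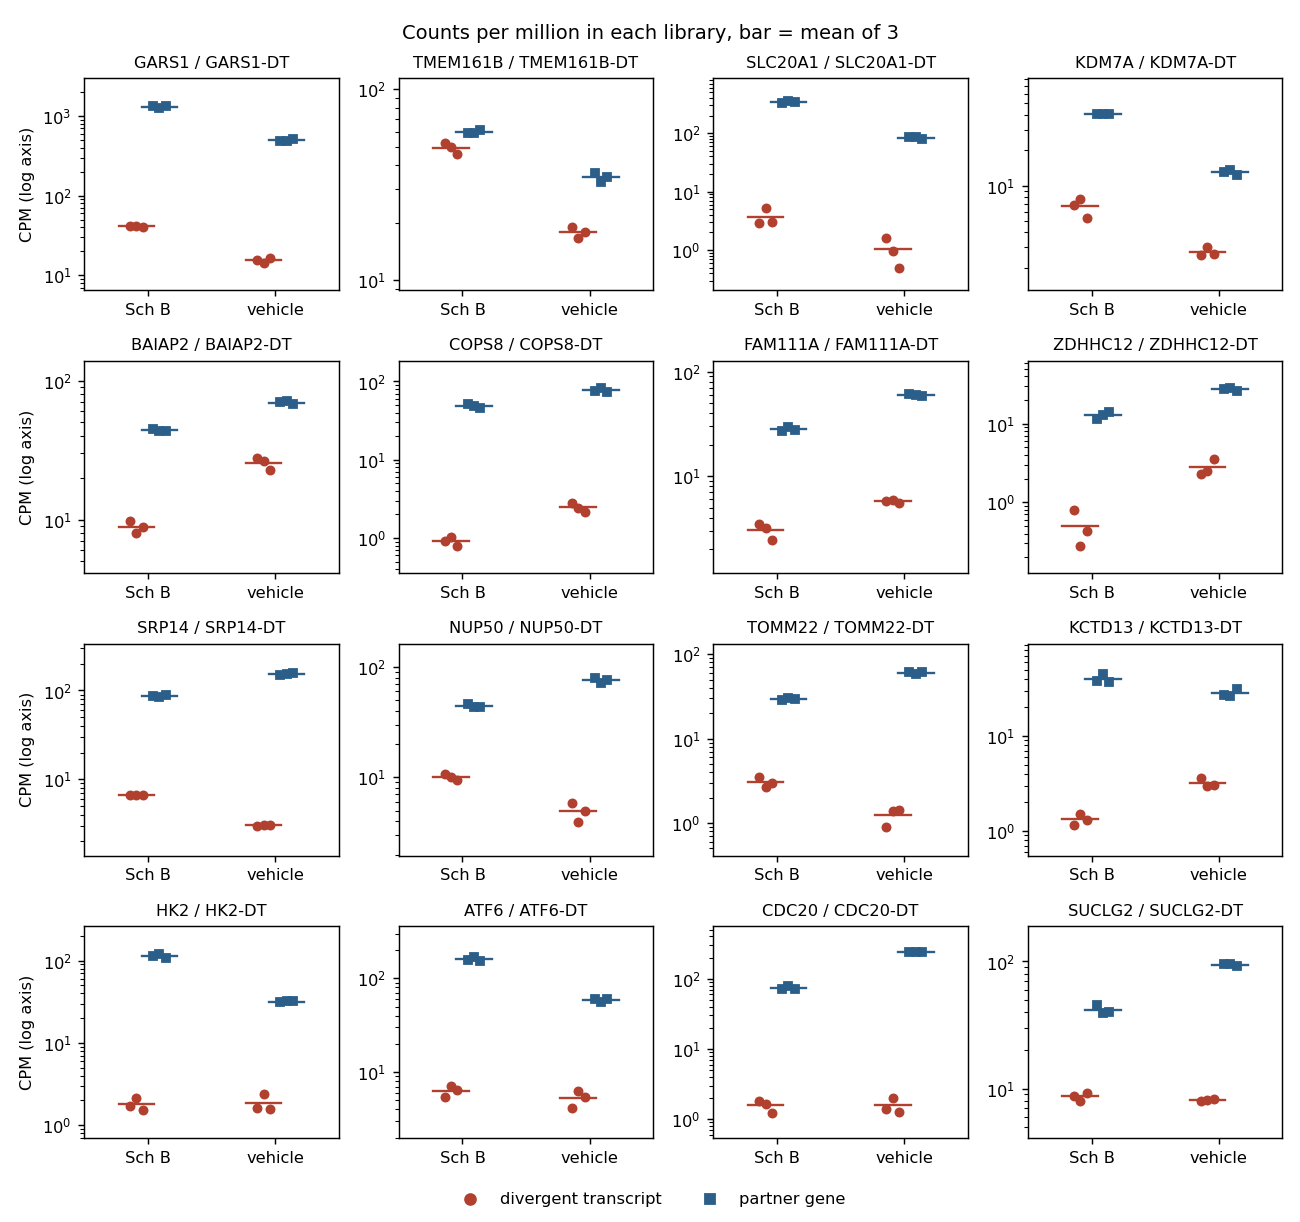
CPM on log axes of the divergent transcript (circles) and its partner gene (squares) in each of 3 libraries per group, with means as bars, for 16 pairs. In the top row both RNAs were higher in Schisandrin B and in the row under it both were lower. SRP14, NUP50 and TOMM22 were lower while their divergent transcripts were higher, with KCTD13 the reverse, and in the bottom row partners changed while the divergent transcripts stayed within overlapping ranges.

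In 19 pairs only the partner was called, as higher, and the ratio was called lower in 11 and in neither direction in 8. A missing call of a low-count RNA does not mean that it stayed unchanged. HK2 encodes hexokinase 2, which starts glycolysis. HK2 had 114.8, 119.7 and 108.8 CPM in Schisandrin B and 31.2, 32.0 and 32.4 in vehicle, 3.59-fold higher (edgeR adjusted p = 1.75e-14). HK2-DT (ENSG00000272711, chromosome 2, 74832655 to 74833987), 140 bases away and overlapping no gene, had 1.71, 2.16 and 1.51 CPM in Schisandrin B and 1.63, 2.38 and 1.55 in vehicle. Its groups overlapped, with a log2 fold change of -0.04 (SE 0.27), whose sign changed with the scaling, and the ratio of the pair was 3.64-fold lower (limma adjusted p = 1.85e-05). At 164 counts over 6 libraries a small change of HK2-DT was not detectable. MRNIP, a partner of the MRN repair complex, rose by 1.71 (SE 0.07) on the log2 scale while MRNIP-DT was at 0.05 (SE 0.27).

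In 31 pairs only the partner was called, as lower, and the ratio was called higher in 17 and in neither direction in 14. B4GAT1, a glycosyltransferase gene acting on dystroglycan, had 7.51, 7.58 and 7.19 CPM in Schisandrin B and 27.7, 31.2 and 26.9 in vehicle. B4GAT1-DT had 1.65, 2.64 and 1.58 CPM in Schisandrin B and 1.78, 1.33 and 0.721 in vehicle, which overlap. The ratio of this pair showed the largest rise of all 175, 2.64 on the log2 scale (SE 0.35, limma adjusted p = 7.33e-06), and B4GAT1-DT passed without vehicle replicate 1, at 0.94. SUCLG2 and BOLA3, chosen after their values were seen, gave the same picture. SUCLG2, a subunit of succinyl-CoA ligase, fell by 1.17 (SE 0.06) on the log2 scale with SUCLG2-DT at 0.09 (SE 0.13), and BOLA3, an iron-sulfur cluster factor, fell by 1.33 (SE 0.10) with BOLA3-DT at -0.06 (SE 0.17).

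In 14 pairs only the divergent transcript was called, as higher, and the ratio was called higher in all 14. DPH5 encodes a methyltransferase of diphthamide synthesis. DPH5-DT (ENSG00000233184, chromosome 1, 101025844 to 101090513) had 18.8, 21.8 and 18.6 CPM in Schisandrin B and 5.48, 6.08 and 5.27 in vehicle, 3.52-fold higher (edgeR adjusted p = 4.49e-10). DPH5 had 39.2, 42.4 and 43.8 CPM in Schisandrin B and 42.6, 44.2 and 47.0 in vehicle, which overlap (log2 fold change -0.10, SE 0.07). RIPK2-DT, chosen after its values were seen and overlapping RIPK2, a kinase gene of innate immunity, rose by 1.42 (SE 0.14) with RIPK2 at -0.05 (SE 0.10). TARS1-DT, chosen in the same way beside the threonyl-tRNA synthetase gene, rose by 1.16 (SE 0.24) with TARS1 at 0.10 (SE 0.04, edgeR adjusted p = 0.0519).

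CRIM1-DT, beside a gene for a transmembrane regulator of bone morphogenetic proteins, was among the 6 called lower with no call of the partner. It had 1.95, 1.67 and 1.65 CPM in Schisandrin B and 3.18, 3.42 and 4.27 in vehicle (log2 fold change -1.04, SE 0.23), with CRIM1 at -0.06 (SE 0.05). CENATAC-DT, beside a gene of the minor spliceosome, fell by 0.87 (SE 0.29) on the log2 scale, and its call was lost without Schisandrin B replicate 1, at -0.64. CENATAC was not called (log2 fold change 0.71, SE 0.35) but passed without vehicle replicate 3, at 1.03. UBL7-DT had 0.611, 0.278 and 0.719 CPM in Schisandrin B and 1.41, 1.12 and 2.50 in vehicle (log2 fold change -1.65, SE 0.40). UBL7 was uneven, at 2.26, 9.95 and 13.6 CPM in Schisandrin B and 11.3, 14.7 and 16.8 in vehicle, and without Schisandrin B replicate 1 the ratio of that pair passed as lower, at -1.49 on the log2 scale.

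The ratio of a pair, fitted with limma over all 2273 head-to-head pairs in which scaling of the library cancels, was higher for 67 of the 175, lower for 28 and in neither direction for 80. That is 38.3% and 16.0%, where all pairs fitted gave 33.8% higher and 25.3% lower. Other pairs of an lncRNA with a coding gene gave 38.1% and 11.4% for the lncRNA over the coding gene, and pairs of coding genes gave 32.8% and 34.3%. The median log2 change of the ratio was 0.29 for divergent transcripts and 0.42 for the other lncRNA pairs. The count limit of the members did not apply to the other pairs. Where the partner was called lower, 38 of 63 ratios were higher and 3 lower, and where the partner was called higher, 14 of 69 were higher and 19 lower. The last counts share the partner's values with the ratio and so describe its make-up.

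**Figure D5:**
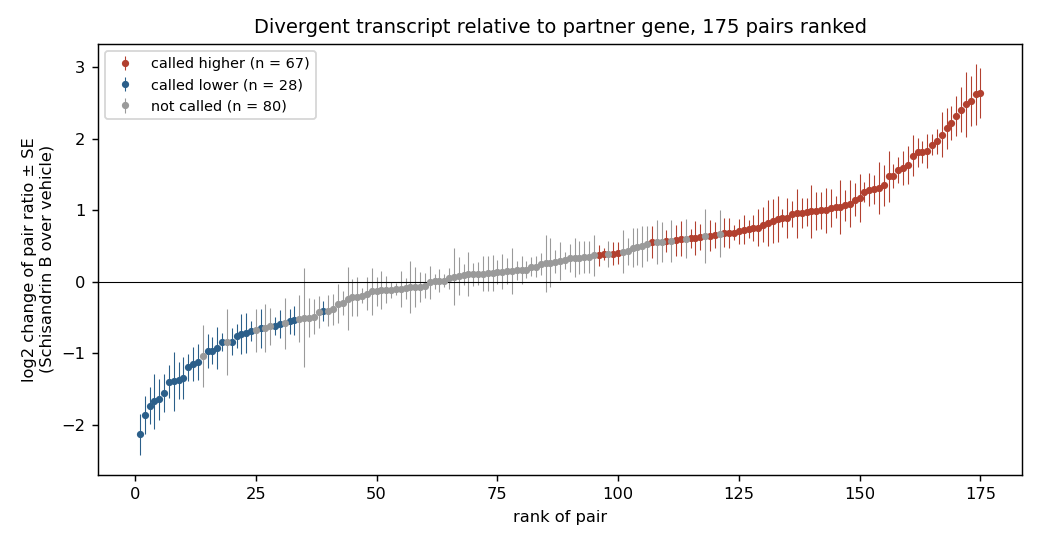
Log2 change of the pair ratio, divergent transcript over partner gene, Schisandrin B over vehicle, with SE, for 175 pairs ranked from lowest to highest. The values run from -2.14 for NEMP2-DT to 2.64 for B4GAT1-DT, and 67 pairs were called higher, 28 lower and 80 in neither direction.

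Grouped by what the partner does, numbers were small. Of 5 partners in a list for the unfolded protein response, ATF4 targets and the secretory pathway (ATF6, CEBPA, DNAJC3, EIF2AK3 and GARS1), all 5 rose, where 32.1% of all protein-coding genes did. Of their divergent transcripts 2 rose, beside 45.7% of all members. Of their ratios 3 fell, beside 16.0% for all members and 25.3% for all pairs fitted. The list is not exhaustive, and SRP14, which fell, and TARS1, which was not called, are related partners outside it. ATF6, a membrane-bound transcription factor released under stress of the endoplasmic reticulum, had 157, 169 and 151 CPM in Schisandrin B and 59.9, 56.5 and 59.4 in vehicle. ATF6-DT had 5.38, 7.03 and 6.47 CPM in Schisandrin B and 4.15, 6.29 and 5.43 in vehicle, which overlap, and the ratio fell by 1.20 (SE 0.19) on the log2 scale. EIF2AK3, the kinase PERK, rose by 1.48 (SE 0.10) with EIF2AK3-DT at 0.35 (SE 0.21), which passed without Schisandrin B replicate 2, at 0.51. DNAJC3, a chaperone of the endoplasmic reticulum, rose by 1.40 (SE 0.10) and DNAJC3-DT by 0.78 (SE 0.26), a call lost without Schisandrin B replicate 1, at 0.43, and without vehicle replicate 3, at 0.65. The DNAJC3-DT ratio, at -0.65 (limma adjusted p = 0.0485), lost its call without Schisandrin B replicates 2 and 3, at -0.44 and -0.62, and without vehicle replicates 1 and 2, at -0.47 and -0.69, each left out in turn. CEBPA, a transcription factor, rose by 0.31 (SE 0.08) with CEBPA-DT at 0.27 (SE 0.17), which passed without vehicle replicate 3, at 0.43. NFE2L1, a transcription factor of proteasome genes outside this list and chosen after its values were seen, rose by 2.07 (SE 0.05). NFE2L1-DT rose by 0.69 (SE 0.24), a call lost without Schisandrin B replicate 2, at 0.54, and without vehicle replicates 2 and 3, at 0.66 and 0.58.

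Of 5 partners in a list for the cell cycle, replication and DNA repair (CDC20, FAM111A, MCPH1, PAXIP1 and WAPL), 4 fell, where 41.4% of all protein-coding genes did. Only the divergent transcript of FAM111A fell, beside 12.6% of all members. Of their ratios 3 rose, beside 38.3% for all members and 33.8% for all pairs fitted. Related partners outside the list were higher, with log2 fold changes of 1.71 for MRNIP, 0.59 for CEP83 and 0.18 for NIPBL. The NIPBL call was lost without Schisandrin B replicate 1, at 0.13, and without vehicle replicate 2, at 0.15. The count of 4 describes only the listed genes. CDC20, the activator of the anaphase-promoting complex, had 70.6, 78.1 and 70.9 CPM in Schisandrin B and 237, 243 and 241 in vehicle. CDC20-DT had 1.83, 1.67 and 1.22 CPM in Schisandrin B and 1.41, 2.03 and 1.28 in vehicle, which overlap (log2 fold change 0.02, SE 0.29). PAXIP1, an adaptor of the DNA damage response, fell by 0.39 (SE 0.06) with PAXIP1-DT at 0.21 (SE 0.10), and WAPL, the cohesin release factor, fell by 0.22 (SE 0.05) with WAPL-DT at 0.45 (SE 0.21). Both divergent transcripts passed as higher when libraries were scaled by upper quartile or by totals. MCPH1 and MCPH1-DT were not called, at 0.07 (SE 0.17) and -0.15 (SE 0.26).

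The mitochondrial list held only COX10 and MRPS30 among partners, and both fell while both ratios rose. Of all protein-coding genes tested 41.4% fell, and ratios rose in 38.3% of all members and 33.8% of all pairs fitted. So short a list cannot set mitochondrial partners apart from these shares. MPC1, ACAD9, TOMM22, SUCLG2 and BOLA3, mitochondrial partners described above, are not in that list. They were named for their changes, SUCLG2 and BOLA3 after their values were seen, so they do not add to its count. COX10, an enzyme of haem A synthesis, fell by 0.27 (SE 0.09) on the log2 scale with COX10-DT at 0.31 (SE 0.14, edgeR adjusted p = 0.0574), which passed without Schisandrin B replicate 3, at 0.38, and under scaling by upper quartile, at 0.37, or by totals, at 0.35. MRPS30, a protein of the mitochondrial ribosome, fell by 0.44 (SE 0.05), and MRPS30-DT, with only 41 vehicle counts, rose by 0.93 (SE 0.29).

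Overlap with other genes bears on how far a member's counts are its own. All 175 lie on the strand opposite to the partner, and 51 of them overlap its span, while 69 overlap no gene of the table. Of those 69, 32 were higher and 9 lower, and their ratios were higher in 27 and lower in 15. Of the 51 that overlap the partner, 25 were higher and 4 lower, and their ratios were higher in 19 and lower in 6. The median log2 fold change was 0.42 in the members without overlap and 0.39 in those that overlap the partner, beside 0.38 in all members. The median log2 change of the ratio was 0.24 and 0.17 in these sets, beside 0.29 in all members. Similar medians do not show that reads of overlapping genes were assigned correctly.

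The distance between starts in the deposited table had a median of 79 bases, counted as negative where the pair overlaps, and 164 pairs met the limit of 2 kb. Of 50 pairs with starts up to 100 bases apart, 22 divergent transcripts were higher and 8 lower, and the pairs called alike were 28.0%. Of 56 pairs with starts 101 to 300 bases apart, 26 were higher and 7 lower, with 37.5% called alike. Of 41 pairs whose starts overlap by up to 2 kb, 19 were higher and 4 lower, with 31.7% called alike. Of 17 pairs with starts more than 300 bases and up to 2 kb apart, 6 were higher and 3 lower, with 41.2% called alike, and of 11 pairs beyond 2 kb, 7 were higher and 0 lower, with 27.3% called alike. By depth, of 84 members with at least 300 counts, 47 were higher and 8 lower, and of 91 with fewer, 33 and 14.

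The machinery that ends and degrades upstream RNA was read in the same fit. Of the genes of the nuclear exosome and its adaptors, 7 of 26 rose and 13 fell (median log2 fold change -0.19). ZFC3H1, a scaffold of the exosome adaptor for polyadenylated RNA, had 81.1, 80.3 and 78.1 CPM in Schisandrin B and 46.6, 47.0 and 46.7 in vehicle, and the core subunit EXOSC8 rose by 0.72 (SE 0.06) on the log2 scale. PHAX, an export adaptor that binds the cap-binding complex, fell by 0.68 (SE 0.06) and ZC3H18, which links that complex to the exosome, by 0.52 (SE 0.04). Of Integrator and Restrictor genes, 2 of 20 rose and 14 fell (median -0.35), among them INTS1 at -0.64 (SE 0.04), WDR82 at -0.67 (SE 0.05) and PPP2R1A, a scaffold of the phosphatase bound to Integrator, at -0.99 (SE 0.04).

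Of cleavage, polyadenylation and termination genes, 3 of 24 rose and 17 fell (median -0.32), with CSTF2 at -1.03 (SE 0.08) and the endonuclease CPSF3 at -0.79 (SE 0.05). Of U1 snRNP proteins, 2 of 13 rose and 10 fell (median -0.80), and those with the smallest adjusted p were Sm proteins, which other spliceosomal snRNPs share, such as SNRPD2 at -0.94 (SE 0.05) and SNRPD3 at -1.11 (SE 0.06). Of pausing and elongation genes, 4 of 27 tested rose and 19 fell (median -0.38), with HEXIM1, an inhibitor of the elongation kinase P-TEFb, at -1.23 (SE 0.05) and NELFB, a subunit of the pausing factor, at -0.95 (SE 0.05). None of 12 RNA polymerase II subunits rose and 11 fell (median -0.53), though 1 rose under upper quartile scaling, and POLR2L had 25.7, 32.2 and 29.04 CPM in Schisandrin B and 93.9, 100.4 and 103.2 in vehicle. These shares are to be read against the 41.4% of all protein-coding genes that were lower, and a relation of these genes to the divergent transcripts was not tested.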

How the data were processed

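RNA from PANC-1 cells was made into libraries with a SMARTER mRNA-Seq kit, per the labels. The authors deposited whole-number counts per Ensembl gene and, beside them, FPKM, a value per length and library size. The FPKM did not follow the counts by a fixed length per gene, and no source used here says how length was set. They also deposited a fold change (a ratio with Schisandrin B on top), its log2 value, and p-values of a test that no source used here describes. By adjusted p, 52 members were higher and 17 lower in the authors' deposited table, and 172 of 175 had the sign found here. The builds GRCh38 and mm10 are named in the submitters' processing notes, and 99.9% of 58228 shared IDs overlapped GENCODE annotation on GRCh38. No source used here gives the aligner, the counter or its strand option.

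Counts were tested in R 4.3.3 with edgeR 4.0.16 (filterByExpr, TMM, robust quasi-likelihood F-test, two-sided), which kept 15773 of 63241 genes, at a Benjamini-Hochberg threshold of 0.05. Each SE is the log2 fold change over the square root of its F. CPM are TMM-scaled, except those of the cell markers, which are scaled by library totals only. The log2 ratio of each pair was tested with limma 3.58.1 on voom values (prior count 0.5, combined weights) over 2273 pairs of genes on opposite strands with starts within 2 kb, including 11 -DT pairs beyond that distance. Both tests were run on simulated counts drawn with the same fixed dispersion for all genes. That check does not cover genes whose libraries vary more than this. Library totals ran from 13656826 to 18289410, and the low counts of most members limit their precision.

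Alternatives were other scalings, other low-count filters, DESeq2 1.42.0, voom, a replicate block, each library left out, other pair weights and distances, a threshold of 0.01, and narrower member sets. Same-numbered libraries had correlations of deviations across genes of 0.0337, -0.0527 and -0.0113, so they were not treated as paired. Libraries of a group were not duplicates, at 3.55 to 5.82 chi-square units a gene. Members, lists and tests were chosen with earlier results of these data known. Named pairs were the most abundant members, those with the largest changes of transcript or ratio among the calls, the clearest pairs called in opposite or equal directions, the members at the count limit and list members among the 4 of smallest adjusted p, and others are marked where they appear. A pair and a marker gene that these rules name are not reported here. Figures were drawn with matplotlib 3.10.9.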

Additional observations from a re-analysis of the deposited data

How the results depend on the processing

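Counts of calls among divergent transcripts, partners, pairs and ratios stayed within 1.5 times under the scalings, filters, tools and thresholds run, with 61 to 88 divergent transcripts higher and 18 to 23 lower. Over all named genes and settings, 69 values no longer passed the threshold, 32 newly passed it and 46 changed sign. Depth limits the 91 members with under 300 counts most. The replicate block gave 78 higher, 23 lower, 58 pairs alike, 22 opposite and 61 and 27 ratios higher and lower, with ZNF584 at -0.0028, and moved no count of calls by over 1.5 times. The libraries share only a number, so this is no paired result.

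The median log2 fold change of divergent transcripts was 0.44 under upper quartile scaling, 0.42 with library totals and 0.32 without the low-count filter. That of partners was 0.079, 0.060 and -0.036. Median shifts of all genes stayed under 0.1. Leaving out 1 library gave medians of 0.34 to 0.39 for divergent transcripts, 0.0043 to 0.054 for partners and 0.26 to 0.33 for ratios. Integrator and Restrictor genes higher numbered 1 without the filter, with DESeq2 and at a threshold of 0.01, and 1 to 2 with 1 library left out. RNA polymerase II subunits higher numbered 1 under upper quartile scaling.

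With at least 300 counts, 47 members were higher, 8 lower, 39 partners higher, 28 lower, 34 pairs alike, 11 opposite, and 36 and 13 ratios higher and lower, with medians of 0.41, 0.12 and 0.26. Members overlapping no gene gave 32, 9, 29, 21, 22, 9, 27 and 15 in that order, with medians of 0.42, 0.12 and 0.24. With at least 50 vehicle counts the medians were 0.30 for divergent transcripts and 0.23 for ratios. These sets hold fewer members. Without the 5 members of highest count the summed share was 0.0988% in Schisandrin B and 0.0750% in vehicle.

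Values near 0 changed sign. Under upper quartile scaling the log2 fold change was 0.0038 for BOLA3-DT, 0.0027 for CRIM1, 0.020 for HK2-DT, 0.036 for NIPBL-DT, 0.013 for RIPK2 and 0.047 for TOLLIP. With library totals it was 0.00060 for HK2-DT, 0.017 for NIPBL-DT and 0.028 for TOLLIP. Without the filter it was -0.035 for CDC20-DT, -0.0069 for MRNIP-DT and -0.040 for ZNF584, and TOLLIP was at 0.0015 with at least 1 CPM in 3 libraries. The OSMR-DT ratio was -0.031 without pair weights. With 1 library left out, log2 fold changes ranged from -0.17 to 0.053 for BOLA3-DT, -0.19 to 0.16 for HK2-DT, -0.075 to 0.037 for NIPBL-DT and -0.11 to 0.062 for TOLLIP. They ranged from -0.13 to 0.23 for CDC20-DT, -0.22 to 0.33 for MRNIP-DT, -0.16 to 0.095 for ZNF584, -0.087 to 0.21 for MCPH1 and -0.31 to 0.026 for MCPH1-DT. Ratios ranged from -0.14 to 0.11 for CEBPA-DT, -0.52 to 0.29 for SLC20A1-DT, -0.025 to 0.047 for GARS1-DT, -1.49 to 0.17 for UBL7-DT, -0.19 to 0.32 for OSMR-DT, -0.10 to 0.30 for GOT1-DT and -0.036 to 0.27 for TRMT61A-DT. The cause of these shifts was not tested.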
